A study of Mus musculus with 11 samples.

Results

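Cholesterol synthesis and storage was followed through 8 genes in lacrimal glands of male NOD mice. The genes were taken by name and cover 4 steps of sterol synthesis (*Hmgcs1*, *Idi1*, *Sqle*, *Cyp51*), the sterol sensor (*Insig1*), storage (*Soat1*) and export (*Abca1*, *Apoe*). They are 8 of the 19058 genes in the table of estimated counts, and all 8 passed the filter on low counts and were among the 13937 genes tested. Whole-gland RNA was sequenced from 3 WT, 5 *Tlr7* KO and 3 *Ifnar1* KO mice, with 1 library per mouse. All were males of the NOD strain, which spontaneously develops autoimmune inflammation of the lacrimal gland. The *Tlr7* KO line carries a 2 base-pair deletion made by CRISPR/Cas9 editing of NOD embryos, in the gene for a receptor of single-stranded RNA. The *Ifnar1* KO line lacks function of a subunit of the type I interferon receptor. WT and *Tlr7* KO mice were 20 to 22 weeks old, and the age of the *Ifnar1* KO mice is not given in the sources used here. The study left out a further *Ifnar1* KO mouse, which grouped with WT and was as inflamed as WT, so the 3 *Ifnar1* KO mice are a selected set. The WT mice are shared by both comparisons with WT.

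Cells make cholesterol from acetyl-CoA through the mevalonate pathway. When sterol in the endoplasmic reticulum is low, the SREBP transcription factors are released and turn on synthesis and uptake genes, and when it is high, INSIG proteins hold them back. Excess cholesterol is esterified for storage in droplets or is passed to apolipoproteins by ABC transporters, whose genes respond to the oxysterol-sensing LXR receptors. Macrophages handle much of the cholesterol of inflamed tissue and secrete apolipoprotein E.

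The libraries had 20512315 to 28814250 counts assigned to genes, and the 10 most abundant genes took 54.0% to 65.9% of them. Levels are therefore given as CPM, the count scaled to library size, with TMM scaling. *Tlr7* and *Ifnar1* transcripts remained detectable in every group. *Tlr7* was at 2.39 ± 0.746 CPM (SD, n = 3) in WT, 0.776 ± 0.175 (n = 5) in *Tlr7* KO and 0.563 ± 0.289 (n = 3) in *Ifnar1* KO glands. *Ifnar1* was at 13.5 ± 2.53, 9.54 ± 1.08 and 9.02 ± 0.625 CPM in the same order, so neither transcript told the KO lines apart. The 10 B cell markers summed to 314 and 282 CPM in WT 1 and WT 3 but to 90.7 in WT 2, and to between 2.67 and 57.6 in the KO mice. WT 2 thus stood apart from the other WT mice. The 8 muscle markers summed to 393, 291 and 286 CPM in WT 1, WT 2 and *Tlr7* KO 4 and to no more than 10.9 in the others. In whole glands, fewer cells of a type and less RNA per cell cannot be told apart.

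Promoter sequences are shown for the genes that moved in both KO lines, *Hmgcs1* and *Apoe*, and beside them for *Insig1* and *Soat1*, which did not pass the test. RefSeq windows on GRCm38.p6, from 250 bases before to 50 bases after each start, matched 7 of the 8 genes, and *Sqle* had none. Each sequence below is the stretch before both the RefSeq and the GENCODE start, 5′ to 3′ on the strand of the gene. Capitals mark the sterol regulatory element (SRE) letters TCACNCCAC and the CCAAT box letters CCAAT, searched on both strands, so ATTGG is a CCAAT box read on the other strand. The stretches are chr13:119690101-119690350 (plus strand) for *Hmgcs1*, chr5:28071162-28071362 (plus) for *Insig1*, chr1:156474332-156474578 (minus) for *Soat1* and chr7:19699189-19699438 (minus) for *Apoe*.
Hmgcs1: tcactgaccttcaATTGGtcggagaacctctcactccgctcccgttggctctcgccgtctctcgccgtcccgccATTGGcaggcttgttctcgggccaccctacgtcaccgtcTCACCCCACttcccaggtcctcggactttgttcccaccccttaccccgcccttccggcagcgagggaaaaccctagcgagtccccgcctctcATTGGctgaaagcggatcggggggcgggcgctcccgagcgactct
Insig1: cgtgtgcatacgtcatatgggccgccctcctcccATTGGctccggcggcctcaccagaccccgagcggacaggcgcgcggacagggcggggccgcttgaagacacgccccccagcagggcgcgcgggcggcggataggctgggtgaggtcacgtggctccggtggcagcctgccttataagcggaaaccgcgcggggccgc
Soat1: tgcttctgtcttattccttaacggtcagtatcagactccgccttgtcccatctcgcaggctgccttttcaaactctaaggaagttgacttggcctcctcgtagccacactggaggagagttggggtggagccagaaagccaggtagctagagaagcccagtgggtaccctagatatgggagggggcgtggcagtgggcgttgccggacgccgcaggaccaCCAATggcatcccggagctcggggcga
Apoe: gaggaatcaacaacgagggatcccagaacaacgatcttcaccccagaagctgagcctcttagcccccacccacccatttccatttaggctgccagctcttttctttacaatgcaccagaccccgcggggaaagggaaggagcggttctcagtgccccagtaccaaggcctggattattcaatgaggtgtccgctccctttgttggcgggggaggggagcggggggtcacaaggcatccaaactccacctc

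The SRE letters were found in the *Hmgcs1* window alone among the 7 genes, as TCACCCCAC at bases -137 to -129 from the RefSeq start (chr13:119690214-119690222). They occur in 408 of 32851 windows (1.24%), and *Hmgcs1* was the only 1 of 37 sterol genes with a window to hold them. The CCAAT letters were found in 37.4% of all windows. CCAAT was found 4 times in *Hmgcs1*, 2 times in *Idi1*, once each in *Cyp51*, *Insig1* and *Soat1*, and not in the *Abca1* and *Apoe* windows. Of the 18 windows of the sterol synthesis list, 14 held it (77.8%). The exact letters of an LXR and an interferon element were also searched on both strands. A pair of AGGTCA copies 4 bases apart, for LXR, was found in 5 of 32851 windows (0.0152%). A pair of TTTC copies 2 bases apart, for interferon, was found in 3.44%. Neither occurred in the windows of the 7 genes. The LXR letters are so rare that their absence was likely in advance. Elements with mismatched letters were not searched, so the absence does not show that these windows lack an LXR element. These are matches of letters, and binding was not measured.

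Of the 4 synthesis genes, *Hmgcs1* rose in both KO lines, *Sqle* fell in *Ifnar1* KO glands, and *Idi1* and *Cyp51* did not pass the test in either, with TMM scaling. These calls were lost with library size only. *Hmgcs1* (ENSMUSG00000093930, chr13:119690379-119708260, plus strand) encodes the synthase that forms HMG-CoA, the substrate of the pathway's rate-limiting enzyme. It was at 20.2, 30.5 and 20.8 CPM in WT 1 to 3. The 5 *Tlr7* KO mice had 42.7, 37.7, 39.7, 40.7 and 39.6 CPM, and the 3 *Ifnar1* KO mice had 34.1, 38.7 and 46.3. Every KO mouse was above every WT mouse, and WT 2 was the highest of the WT mice. Both hold for TMM scaling, since by library size only WT 2, at 26.3 CPM, was the lowest of the WT mice and WT 3, at 30.7, the highest, and *Tlr7* KO 5, at 27.4, was below WT 1 and WT 3. The *Ifnar1* KO mice, at 37.2 to 43.4, stayed above every WT mouse. The TMM mean was 23.8 ± 5.79 CPM (SD, n = 3) in WT, 40.1 ± 1.82 (n = 5) in *Tlr7* KO and 39.7 ± 6.16 (n = 3) in *Ifnar1* KO glands.

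*Hmgcs1* was 1.69-fold higher in *Tlr7* KO than in WT glands (log2 fold change 0.76, standard error 0.129, edgeR adjusted p = 0.00354) and stayed DE with any 1 mouse left out. In *Ifnar1* KO it was 1.65-fold higher (log2 fold change 0.72, standard error 0.194, edgeR adjusted p = 0.0412). Leaving out a single mouse ended that call, except for WT 2, and the log2 fold change then ran from 0.58 to 0.92. Scaling by library size only, which shifted the median of all genes to -0.54 and -0.31, gave *Hmgcs1* 0.31 (adjusted p = 0.176) and 0.47 (adjusted p = 0.163), so the direction was kept and the calls were not. An antisense gene, *Gm48342*, shares 557 exon bases with *Hmgcs1*, and whether the counting used strand is not given in the sources used here.

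**Figure D1:**
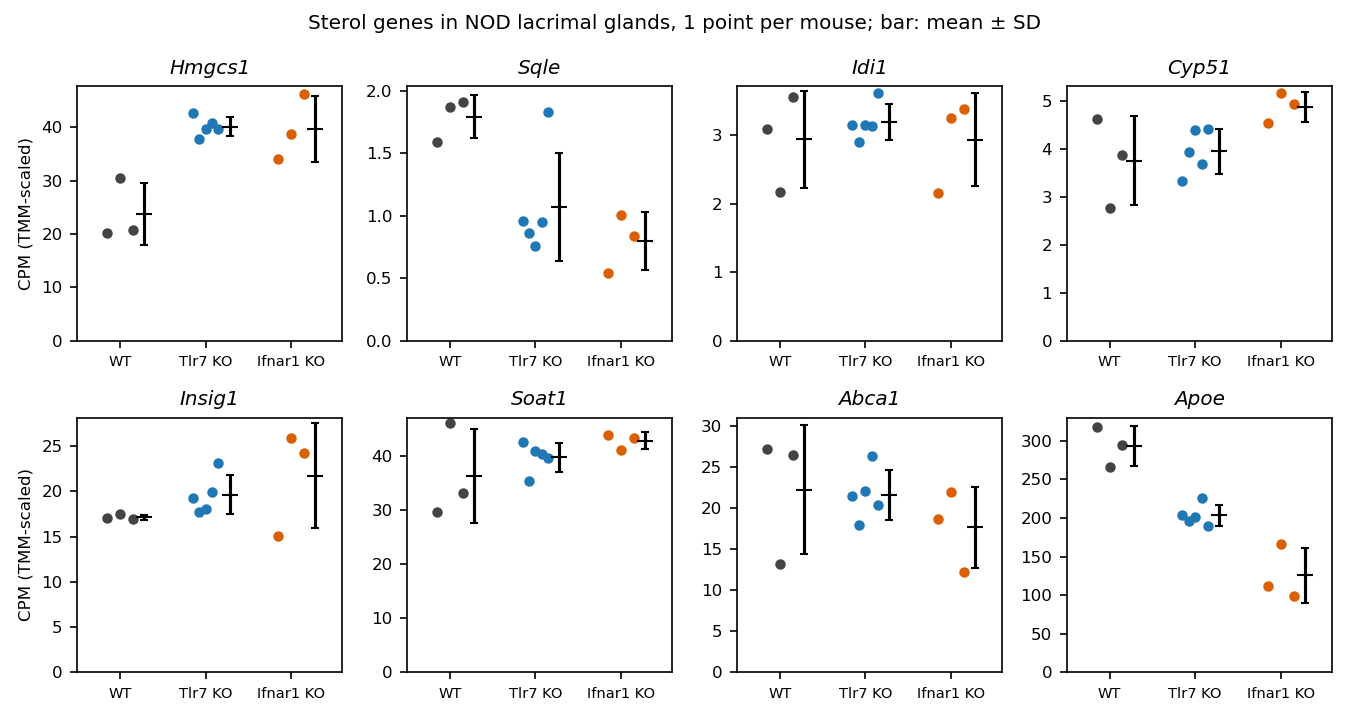
TMM-scaled CPM (y axis, from 0) of the 8 genes in each mouse by group (x axis), with 1 point per mouse and the mean ± SD as a bar. With this scaling all KO mice lie above all WT mice for *Hmgcs1* (by library size only *Tlr7* KO 5 does not) and below all of them for *Apoe*, and for *Sqle* only *Tlr7* KO 5, at 1.84 CPM, lies among the WT mice.

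*Sqle* (ENSMUSG00000022351, chr15:59315077-59331192, plus strand) encodes squalene epoxidase, which adds the first oxygen to squalene. It had 1.59, 1.87 and 1.91 CPM in WT 1 to 3, which are 47, 44 and 70 counts. In *Tlr7* KO mice it had 0.957, 0.867, 0.759, 0.950 and 1.84 CPM, and in *Ifnar1* KO mice 0.546, 1.01 and 0.836. All *Ifnar1* KO mice and 4 of the 5 *Tlr7* KO mice were below every WT mouse, while *Tlr7* KO 5 was within the WT range. *Sqle* fell in *Ifnar1* KO glands to 0.438 of WT (log2 fold change -1.19, standard error 0.308, edgeR adjusted p = 0.0377). Again the call held only when WT 2 was the mouse left out, and it was lost in the second count table (-1.04, adjusted p = 0.0882) and with library size only (-1.49, adjusted p = 0.0679). In *Tlr7* KO it was not called (-0.75, standard error 0.290, edgeR adjusted p = 0.0729), and it was without *Tlr7* KO 5 (-1.02, adjusted p = 0.0117) and with library size only (-1.29, adjusted p = 0.0139). *Sqle* had 16 to 70 counts per mouse.

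*Idi1* (chr13:8885501-8892451, plus strand), which interconverts the isoprenoid building blocks, was at 2.94 ± 0.703 CPM in WT, 3.19 ± 0.260 in *Tlr7* KO and 2.93 ± 0.677 in *Ifnar1* KO glands. The groups overlapped, with 95% intervals of the fold of 0.819 to 1.42 in *Tlr7* KO and 0.621 to 1.54 in *Ifnar1* KO. *Cyp51* (chr5:4081145-4104746, minus strand), the lanosterol demethylase, was at 3.75 ± 0.929, 3.95 ± 0.466 and 4.88 ± 0.312 CPM in the same order. Its intervals were 0.787 to 1.39 and 0.887 to 1.83. With library size only the log2 fold change in *Tlr7* KO turned from 0.11 to -0.45 for *Idi1* and from 0.07 to -0.49 for *Cyp51* (adjusted p = 0.262 and 0.215). Each shares exon bases with a gene on the opposite strand, 323 with *Gm48574* for *Idi1* and 166 with *Akap9* for *Cyp51*.

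*Insig1* (chr5:28071363-28078662, plus strand), the sensor that retains SREBP, had 16.9 to 17.5 CPM in the WT mice. The *Tlr7* KO mice had 19.3, 17.7, 18.0, 19.9 and 23.1, all above WT, and the *Ifnar1* KO mice 15.1, 25.9 and 24.2, on both sides of WT. By library size only the WT mice were at 24.4, 15.1 and 25.0 CPM and the *Tlr7* KO mice at 16.0 to 19.4, so the groups overlapped and the direction turned (log2 fold change -0.32, adjusted p = 0.212). It was not DE in *Tlr7* KO (log2 fold change 0.19, standard error 0.0932, edgeR adjusted p = 0.135) or in *Ifnar1* KO (0.32, standard error 0.202, edgeR adjusted p = 0.279). The TMM separation in *Tlr7* KO had p = 0.0536 in a two-sided exact permutation test of mean log2 CPM, where 0.0179 is the smallest p that 3 mice against 5 allow.

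*Soat1* (chr1:156424525-156474331, minus strand) encodes the enzyme that esterifies cholesterol for storage. It was at 36.3 ± 8.71 CPM in WT, 39.8 ± 2.67 in *Tlr7* KO and 42.8 ± 1.54 in *Ifnar1* KO glands. WT 2, at 46.2 CPM, was above every KO mouse, while WT 1 and WT 3 were at 29.6 and 33.1, below every KO mouse. By library size only this order turned, with WT 1 to 3 at 42.6, 39.9 and 49.0 CPM, all above the *Tlr7* KO mice (27.4 to 39.8), and the log2 fold changes were -0.31 and -0.02 (adjusted p = 0.176 and 0.964). With TMM *Soat1* was not DE in *Tlr7* KO (0.13, adjusted p = 0.453) or *Ifnar1* KO (0.22, adjusted p = 0.355), but without WT 2 edgeR called it higher in both (0.33, adjusted p = 0.00867, and 0.41, adjusted p = 0.0254). *Abca1* (chr4:53030787-53159895, minus strand), the transporter that loads cholesterol onto apolipoproteins, had 27.2, 13.2 and 26.5 CPM in WT mice. The KO mice, at 12.3 to 26.4 CPM, fell within nearly the same range. *Abca1* had 95% intervals of the fold of 0.687 to 1.36 in *Tlr7* KO and 0.467 to 1.29 in *Ifnar1* KO glands. With library size only its log2 fold change moved from -0.05 to -0.63 in *Tlr7* KO (adjusted p = 0.153) and from -0.37 to -0.73 in *Ifnar1* KO (adjusted p = 0.340). With each mouse left out, *Abca1* in *Tlr7* KO ran from -0.32, without WT 2, to 0.12, without WT 1.

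*Apoe* (ENSMUSG00000002985, chr7:19696109-19699188, minus strand), the lipid carrier, fell in both KO lines and lay lowest in *Ifnar1* KO. The WT mice had 317, 266 and 295 CPM. The *Tlr7* KO mice had 204, 196, 201, 226 and 190 CPM, and the *Ifnar1* KO mice 112, 166 and 99.4. The 3 groups did not overlap. By library size only the KO mice were also below every WT mouse (230 to 456 CPM), but the *Tlr7* KO (131 to 220) and *Ifnar1* KO mice (93.1 to 166) overlapped. *Apoe* fell to 0.694 of WT in *Tlr7* KO (log2 fold change -0.53, standard error 0.0944, edgeR adjusted p = 0.00428) and stayed DE with any 1 mouse left out. In *Ifnar1* KO it fell to 0.422 of WT (-1.25, standard error 0.218, edgeR adjusted p = 0.0225), and that call needed WT 1, WT 3 and the *Ifnar1* KO mice 1 and 3, since leaving out any of these ended it, although the log2 fold change with each mouse left out stayed between -1.49 and -1.12.

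**Figure D2:**
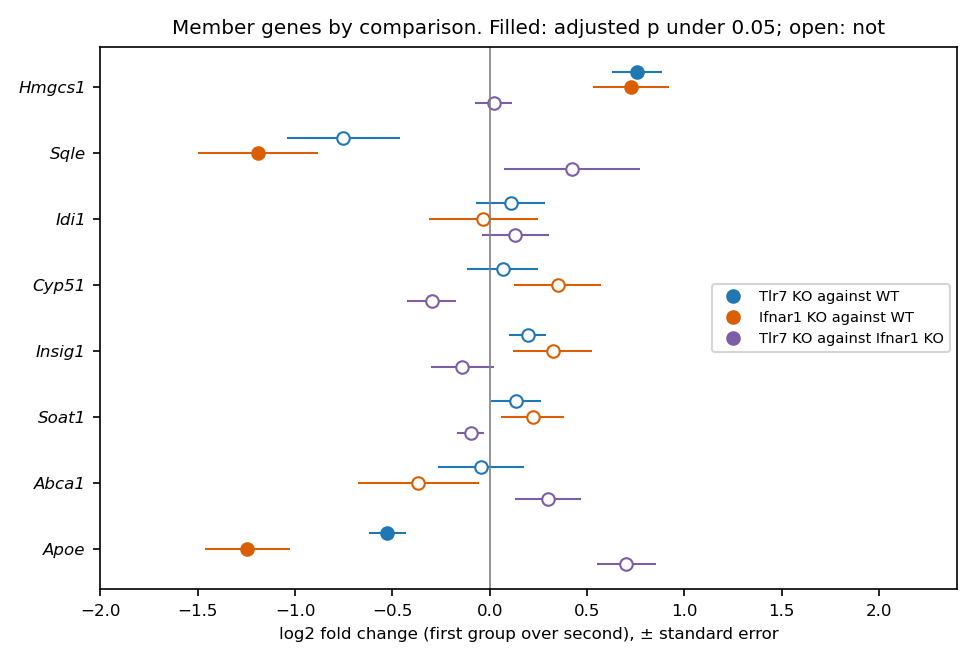
Log2 fold change (x axis) ± standard error of the 8 genes (y axis) in 3 comparisons, with filled points for an edgeR adjusted p under 0.05. *Hmgcs1* lies near 0.7 in both comparisons with WT and at 0.02 between the KO lines, while *Apoe* lies at -0.53 and -1.25 against WT and at 0.70 between the KO lines.

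In all, 1 of the 8 genes was higher and 1 lower in *Tlr7* KO, where 15.3% and 17.4% of the 13937 genes were (32.7% in either direction). In *Ifnar1* KO, 1 was higher and 2 were lower, against 6.76% and 12.4% of all genes (19.2% in either direction). Groups did not overlap for 3 of the 8 genes in each comparison. In *Tlr7* KO 2 of these were higher and 1 lower, beside 16.1% and 14.5% of all genes (30.6% in all), and in *Ifnar1* KO 1 was higher and 2 lower, beside 20.4% and 21.2% (41.6% in all). By library size only the 3 in *Tlr7* KO were all lower (*Sqle*, *Soat1* and *Apoe*). Across the 8 genes the TMM median was 0.09 (log2) against WT in either line, beside -0.04 and -0.02 over all genes. Counts of this size are near the background, and the lines share their WT mice.

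The KO lines were also compared with each other, without the WT mice. By edgeR 0 of the 8 genes were called, beside 1.79% of all genes (0.926% higher and 0.868% lower in *Tlr7* KO). DESeq2 called 1 of the 8, and of all 13937 genes it called 330 higher and 247 lower. By edgeR 2 of the 8 had an unadjusted p under 0.05, beside 2270 of all 13937 genes. The 2 genes were *Apoe* and *Cyp51*. *Apoe* was 0.70 higher on the log2 scale in *Tlr7* KO (standard error 0.152, edgeR adjusted p = 0.0505). With TMM all 5 *Tlr7* KO mice were above all 3 *Ifnar1* KO mice. The two-sided exact permutation p = 0.0179, the smallest possible, restates that separation. Over the alternatives the adjusted p of *Apoe* ranged from 0.000115 to 0.243, and without *Ifnar1* KO 2 it was 0.000859. *Cyp51* was lower in *Tlr7* KO by -0.30 (standard error 0.127, edgeR adjusted p = 0.283) with groups that did not overlap. Such a gap was found in 5.42% of all genes in that direction and, as for *Apoe*, in 5.44% in the other (10.9% in all). These gaps are with TMM. By library size only *Cyp51* and *Soat1* had groups apart, both lower in *Tlr7* KO, and those of *Apoe* overlapped. The fold of *Hmgcs1* between the lines had a 95% interval of 0.877 to 1.17.

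Per kilobase of the longest annotated transcript, the levels in WT ran from *Apoe*, at 208 ± 18.4 CPM per kb, through *Hmgcs1* (6.88 ± 1.67), *Insig1* (6.35 ± 0.108), *Soat1* (4.34 ± 1.04), *Abca1* (2.17 ± 0.769), *Idi1* (0.970 ± 0.232) and *Cyp51* (0.955 ± 0.236) to *Sqle* (0.402 ± 0.0390). *Hmgcs1* and *Insig1*, and *Idi1* and *Cyp51*, did not differ beyond their spread in this table. In the second count table, *Idi1* had 8 to 21 counts per mouse in place of 51 to 130 and was the lowest in WT, at 0.341 ± 0.0563 CPM per kb, with *Sqle* at 0.451 ± 0.0616, *Cyp51* at 1.12 ± 0.278, *Insig1* at 5.50 ± 0.131 and *Hmgcs1* at 8.22 ± 1.80. In the main table in *Ifnar1* KO glands *Cyp51* (1.24 ± 0.0793) was above *Idi1* (0.968 ± 0.224), and the rest of the order was the same.

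The rest of the pathway was read from lists of genes. Without *Ifnar1* KO 1 or *Ifnar1* KO 3 no gene at all was called in the *Ifnar1* KO comparison. Every *Ifnar1* KO call in the lists below therefore needed both of these mice. Of 20 synthesis genes, 5 were higher and 3 lower in *Tlr7* KO, and 2 were higher and 2 lower in *Ifnar1* KO, with medians of 0.09 and 0.17. The 8 and 4 called genes of 20 stand beside 32.7% and 19.2% of all genes, and so near the background. Those that rose in *Tlr7* KO beside *Hmgcs1* were *Ebp* (0.52, adjusted p = 0.00242), *Lss*, the enzyme that closes the sterol rings (0.67, adjusted p = 0.00520), *Msmo1* (0.47, adjusted p = 0.0146) and *Fdps* (0.28, adjusted p = 0.0488), of which *Msmo1* and *Fdps* turned to -0.05 and -0.23 with library size only. *Lss* also rose in *Ifnar1* KO (0.67, adjusted p = 0.0292). *Fdft1*, which makes squalene just before the *Sqle* step, fell in both lines, by 1.24 and 1.06 on the log2 scale (adjusted p = 0.00794 and 0.0345). It went from 2.81 ± 0.187 CPM in WT to 1.20 ± 0.394 in *Tlr7* KO and 1.37 ± 0.399 in *Ifnar1* KO glands. *Hsd17b7* fell in *Tlr7* KO (-0.93, adjusted p = 0.0377). *Pmvk* was lower in *Tlr7* KO than in *Ifnar1* KO (-0.80, adjusted p = 0.0102) and was not DE against WT in either.

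**Figure D3:**
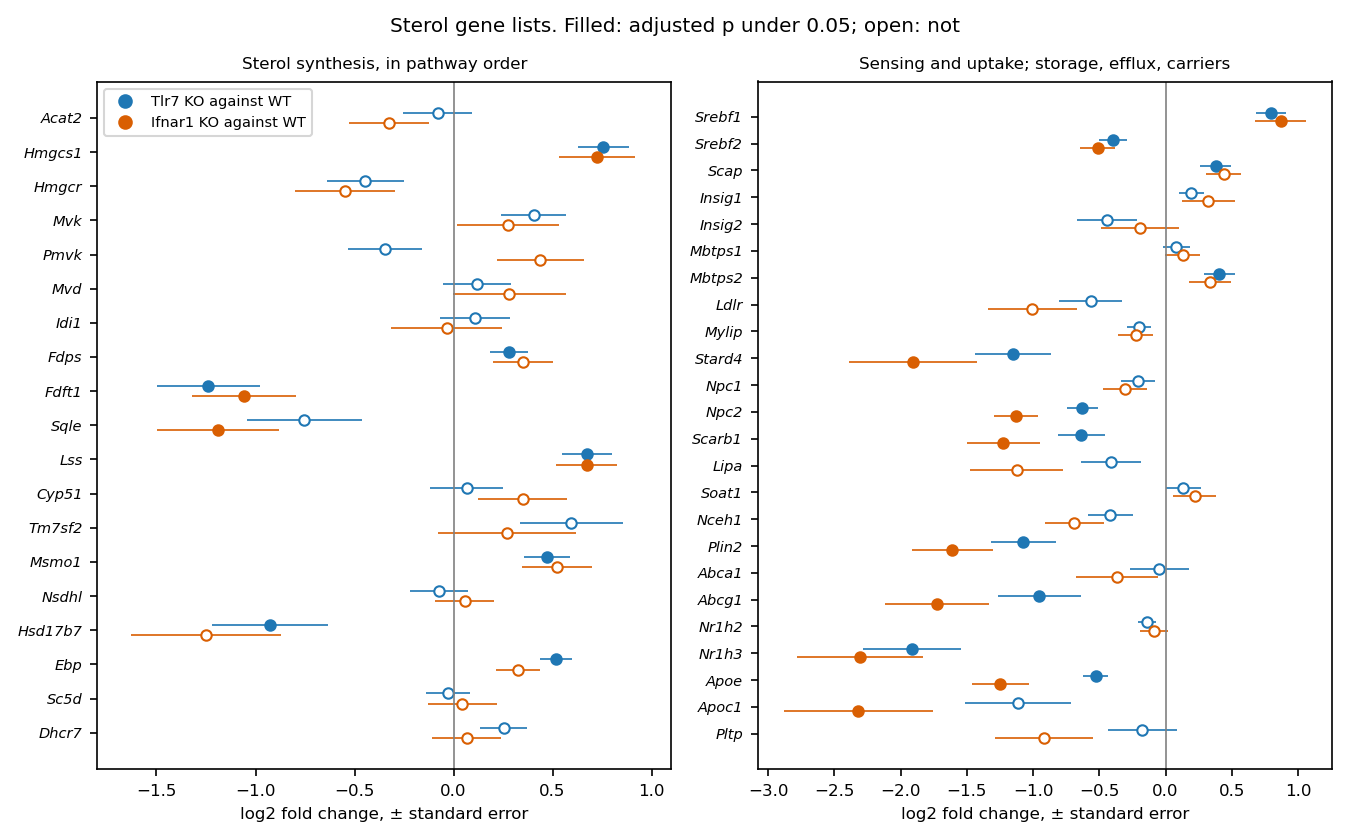
Log2 fold change (x axis) ± standard error of sterol genes (y axis) against WT, with 19 synthesis genes in pathway order at left and sensing, uptake, storage, efflux and carrier genes at right. Filled points have an edgeR adjusted p under 0.05, and the filled points of the storage genes all lie below 0 while those of synthesis genes lie on both sides, with TMM scaling.

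The SREBP genes moved in opposite directions. *Srebf1*, whose products drive fatty acid as well as sterol genes, rose by 0.80 and 0.87 (adjusted p = 0.00196 and 0.0267). It went from 40.6 ± 7.01 CPM in WT to 70.7 ± 2.37 in *Tlr7* KO and 75.3 ± 12.8 in *Ifnar1* KO glands. *Srebf2*, the main driver of sterol synthesis, fell by 0.40 and 0.51 (adjusted p = 0.0188 and 0.0372). Of the 14 sensing and uptake genes tested, 3 were higher and 4 lower in *Tlr7* KO, and 1 was higher and 4 were lower in *Ifnar1* KO. These are 21.4% higher and 28.6% lower in *Tlr7* KO, beside 15.3% and 17.4% of all genes, and 7.14% and 28.6% in *Ifnar1* KO, beside 6.76% and 12.4%. The other genes that fell in both were *Npc2*, which carries cholesterol out of lysosomes (-0.63 and -1.13, adjusted p = 0.00506 and 0.0207), *Stard4* (-1.15 and -1.90, adjusted p = 0.0146 and 0.0366) and *Scarb1*, a lipoprotein receptor (-0.64 and -1.22, adjusted p = 0.0236 and 0.0281). *Mbtps2*, a protease that releases SREBP, rose in *Tlr7* KO (0.41, adjusted p = 0.0256, but -0.08 with library size only), as did *Scap*, the SREBP escort (0.38, adjusted p = 0.0353, but -0.07). With that scaling 0 of the sterol genes were called higher in either line, in fits whose share over all genes is not given here.

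Of the 10 storage, efflux and carrier genes tested, 4 were lower in *Tlr7* KO and 5 in *Ifnar1* KO, and none was higher. Over all genes 17.4% and 12.4% were lower. The medians were -0.47 and -1.08. *Nr1h3*, which encodes LXR-alpha, fell by 1.91 and 2.31 (adjusted p = 0.00569 and 0.0249). *Plin2*, a lipid droplet coat gene, fell by 1.07 and 1.61 (adjusted p = 0.0106 and 0.0234). *Abcg1*, a cholesterol exporter, fell by 0.95 and 1.73 (adjusted p = 0.0424 and 0.0284). *Apoc1* fell in *Ifnar1* KO (-2.32, adjusted p = 0.0332), and *Pltp* was higher in *Tlr7* KO than in *Ifnar1* KO (0.73, adjusted p = 0.0419). *Cyp27a1*, a sterol hydroxylase, rose in both (0.79 and 0.91, adjusted p = 0.00349 and 0.0221) and was the only 1 of 4 oxysterol genes tested that was called. That is 25.0% of the list called higher in each line, beside 15.3% and 6.76% of all genes, and rests on 1 gene.

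Fatty acid synthesis genes are the other targets of SREBP. Of 11, 6 rose and 2 fell in *Tlr7* KO, and 4 rose and 2 fell in *Ifnar1* KO. The shares that rose were 54.5% and 36.4%, beside 15.3% and 6.76% of all genes. The share that fell was 18.2% in each line, near the 17.4% and 12.4% of all genes. With library size only, *Thrsp* (3.18, adjusted p = 0.00359) and *Fasn* (0.92, adjusted p = 0.0449) were the genes of these that kept the call in *Tlr7* KO, and *Thrsp* alone (2.75, adjusted p = 0.0327) in *Ifnar1* KO. The summed level of the list was 408, 624 and 543 CPM in WT, *Tlr7* KO and *Ifnar1* KO glands with TMM, and 536, 557 and 544 by library size only. With TMM *Thrsp*, a lipogenic regulator, rose from 2.88 ± 2.26 CPM in WT to 40.8 ± 7.63 and 27.3 ± 2.33 (log2 fold change 3.78 and 3.19, adjusted p = 0.00144 and 0.0230). *Fasn*, the fatty acid synthase, rose by 1.42 and 0.87 (adjusted p = 0.00215 and 0.0309), *Me1* by 0.64 and 0.71 (adjusted p = 0.00271 and 0.0227) and *Acly* by 0.45 and 0.69 (adjusted p = 0.00534 and 0.0225), where *Acly* turned to -0.04 in *Tlr7* KO with library size only. *Elovl5* and *Elovl6*, which lengthen fatty acids, fell by 1.46 and 1.34 in *Tlr7* KO (adjusted p = 0.00434 and 0.0103) and by 1.57 and 1.65 in *Ifnar1* KO (adjusted p = 0.0249 and 0.0332).

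Cell type markers moved with these genes. The counts of called markers stand beside 15.3% higher and 17.4% lower of all genes in *Tlr7* KO, and 6.76% and 12.4% in *Ifnar1* KO. The 15 macrophage markers summed to 357 to 644 CPM in WT, 256 to 333 in *Tlr7* KO and 96.2 to 244 in *Ifnar1* KO mice, the order also seen for *Apoe*. Of these markers 8 fell and 1, *Mertk*, rose in *Tlr7* KO, where it turned sign with library size only, and 9 fell and *Mertk* rose in *Ifnar1* KO, and *Lyz2*, the most abundant, fell by 0.57 and 1.62 (adjusted p = 0.0257 and 0.0408). The 11 gland epithelial markers summed to 1125 to 1391 CPM in WT, 1626 to 1682 in *Tlr7* KO and 1636 to 1842 in *Ifnar1* KO mice, so that every KO mouse was above every WT mouse with TMM scaling, as for *Hmgcs1*. By library size only this was lost, with 1616, 1202 and 1815 CPM in WT 1 to 3, 1125 to 1583 in *Tlr7* KO and 1725 to 1801 in *Ifnar1* KO mice, and the *Tlr7* KO mean (1460) was below that of WT (1544). Of these, 4 rose (*Krt8* and *Aqp5* turned sign with library size only) and 2 fell in *Tlr7* KO, and 2 rose and 2 fell in *Ifnar1* KO, so that the shares lower, 18.2% in each, were near those of all genes, and *Bhlha15*, a secretory cell factor and the most abundant, rose by 0.49 and 0.67 (adjusted p = 0.00839 and 0.0499). In WT 2, *Apoe* and the macrophage sum were the lowest of the WT mice under both scalings, while *Hmgcs1* and the epithelial sum were the highest with TMM and the lowest by library size only. The part of these cell types in the changes of *Hmgcs1*, *Sqle* and *Apoe* was not tested.

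All 10 B cell markers fell in both KO lines (*Cd79a* by 3.33 and 4.02, adjusted p = 0.00434 and 0.0225). Over all genes 17.4% fell in *Tlr7* KO and 12.4% in *Ifnar1* KO, and the counts of this paragraph stand beside these shares. Of the T cell markers, 7 and 8 of 10 fell (*Cd4* by 1.95 and 3.04, adjusted p = 0.00997 and 0.0295). Of 12 interferon-stimulated genes, 1 fell in *Tlr7* KO and 12 in *Ifnar1* KO. None of the 8 adipocyte markers tested was called, with *Cfd* at -0.52 and -1.30 (adjusted p = 0.449 and 0.104). Of the 8 muscle markers 0 were called in *Tlr7* KO and 1 fell in *Ifnar1* KO, with *Myh4* at -2.30 and -6.27 (adjusted p = 0.382 and 0.0704).

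**Figure D4:**
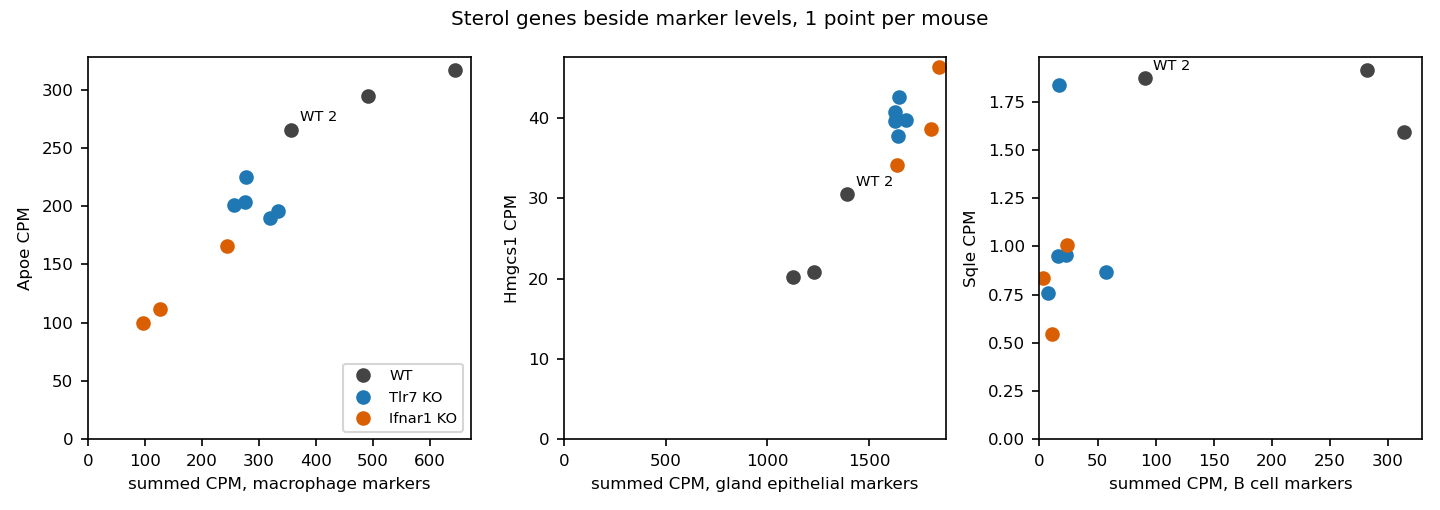
CPM (y axis, from 0) of *Apoe*, *Hmgcs1* and *Sqle* against the summed CPM of macrophage, gland epithelial and B cell markers (x axis, from 0), with 1 point per mouse and color for group. With TMM scaling, for *Apoe* the WT points lie at upper right and for *Hmgcs1* at lower left, with WT 2 nearest the KO mice in both, and at *Tlr7* KO 5 *Sqle* is 1.84 CPM with a B cell sum of 16.7 CPM.

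Genes with the most similar pattern were sought among 5041 genes averaging 10 CPM or more, by Pearson's r of log2 CPM over the 11 mice. These r are descriptions, since the mice share their groups and library scaling. *Apoe* was most like *Zfp36l2* (r = 0.974), *Ctss* (0.963), which is also a macrophage marker here, and *Slfn2* (0.957). *Insig1* was most like *Fdps* (0.903), another sterol synthesis gene, *Pgam1* (0.897) and *Pycrl* (0.896). *Soat1* was most like *Nsun2* (0.973), *Actr1b* (0.957) and *Parp16* (0.956), and *Abca1* most like *Man2b1* (0.889), *Ctsa* (0.884) and *Grina* (0.873). The mean of the 4 synthesis genes was most like *Midn* (0.877), *Pgk1* (0.873), *Pcyt1a* (0.863), a septin gene listed as 2-Sep (0.850) and *Cndp2* (0.849).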

How the data were processed

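RNA of whole lacrimal glands was sequenced by the authors on an Illumina HiSeq instrument. Transcript abundances were estimated by the authors with salmon and brought to gene level with tximport, and the labels also name HISAT2 2.1.0 and the mm10 build. The main deposited table gives such estimated counts, as integers, for 19058 genes. Although named as normalized, its columns have unequal totals and were treated as counts. The other deposited table has raw counts of 39017 genes, whose counter is not given in the sources used here, and served as an alternative. Columns were matched to mice by name, and 1 further sample column was not used.

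R 4.3.3 with edgeR 4.0.16 and DESeq2 1.42.0 was used. Genes whose counts in the WT mice added up to 30 or more were scaled by TMM and tested with the quasi-likelihood method of edgeR, in a separate fit for each pair of groups, and p values were adjusted by Benjamini-Hochberg over 13937 genes. A gene was called at an adjusted p under 0.05, and adjusted p values in the report are from this edgeR test unless another is named. Tests are two-sided. Intervals are 95% and give the uncertainty of the fold between groups, from its standard error. SD gives the spread of the mice in a group. On simulated counts the test recovered 67%, 52% and 77% of genes changed 1 log2 unit in the *Tlr7* KO, *Ifnar1* KO and KO against KO comparisons, and 100% of those changed 2. The changed genes were drawn from those with higher mean counts, and all genes had a dispersion of 0.05. Recovery of genes with low counts, such as *Sqle*, was not measured. Annotation is GENCODE M21 on GRCm38.

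The 8 genes, the lists and the alternatives were chosen with earlier results of these data known. Named genes are the 8, the targeted genes, up to 6 called genes of each pathway list by smallest adjusted p, the most abundant gene of each marker list, and the genes of most similar pattern. *Hsd17b7*, *Scap*, *Mertk*, *Krt8* and *Aqp5* fall outside the rule and were chosen after seeing their values. Some list genes are counted in their lists, and their single values are not reported here. The alternatives were DESeq2, RLE and upper-quartile factors, library size only, no gene filter, filterByExpr, all 11 mice in 1 fit, a replicate block, the second table, a prior count of 0.5 in place of 2 for log2 CPM, and each mouse left out.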

Additional observations from a re-analysis of the deposited data

Results flagged for a closer look

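*Sqle* in *Tlr7* KO mice was flagged because *Tlr7* KO 5, at 1.84 CPM, lay far from the other 4 mice. The gap to its nearest neighbour was 0.816 of the whole range of the group, above Dixon's critical value of 0.71 for 5 mice. This rule flags about 1 in 20 groups by chance. *Tlr7* KO 5 also had the lowest TMM factor, 0.692, and 65.9% of its counts in 10 genes.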

How the results depend on the processing

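Beside the 1 higher and 1 lower of the 8 genes and the 9 higher and 11 lower of the 48 sterol genes tested in *Tlr7* KO, library size only gave 0 and 2, and 0 and 23. In *Ifnar1* KO (1 and 2, and 4 and 11) it gave 0 and 1, and 0 and 6, all 11 mice in 1 fit gave 10 and 17 sterol genes, and the second table gave 1 lower of the 8. Between the KO lines (0 and 0, and 1 and 1), 1 of the 8 genes, *Apoe*, was called higher with DESeq2, RLE, upper-quartile factors, no gene filter, filterByExpr and the second table. Sterol genes called higher there were 5 with DESeq2, 2 with RLE, upper-quartile factors, no filter or filterByExpr, and 0 with library size only, and all 11 mice in 1 fit gave 0 and 0. The causes were not tested. The counts with library size only stand without the share of all genes called in that fit. They are not read as results about these genes. Library size only moved the share of called genes that were lower from 53.2% to 97.2%, 64.8% to 96.2% and 48.4% to 69.4% in the 3 comparisons.

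With each mouse left out, the 8 genes gave 1 to 2 higher and 1 to 2 lower in *Tlr7* KO, 0 to 2 and 0 to 2 in *Ifnar1* KO, and 0 to 1 higher between the lines. The sterol genes gave 5 to 11 higher and 5 to 21 lower, 0 to 6 and 0 to 20, and 0 to 7 and 1 to 3. Of all 13937 genes, these fits called 1296 to 3189 higher and 1304 to 3474 lower in *Tlr7* KO. They called 0 to 1847 and 0 to 2819 in *Ifnar1* KO, and 36 to 518 and 40 to 359 between the lines. Over all genes, the *Ifnar1* KO comparison had 2677 calls, 13 without WT 1, 121 without WT 3 and 0 without *Ifnar1* KO 1 or 3.

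With the replicate number as a block, 0 of the 8 genes and 0 of the sterol genes were called in either comparison with WT, in both directions. Between the KO lines, the block gave 1 of the 8 genes and 3 sterol genes higher. The share of all genes called under the block is not given here, so these counts are not read as results about the genes. Deviations of same-numbered mice correlated at -0.143, -0.400 and 0.0305 in *Tlr7* KO against WT, and at -0.159, -0.440 and -0.276 in *Ifnar1* KO against WT. The numbers thus gave no sign of pairing the KO mice with WT mice. Between the KO lines same-numbered mice correlated at 0.0645, 0.340 and 0.260, and mice of different numbers at -0.341 to 0.0676. Whether the numbers pair the mice of the KO lines was not settled.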
